A study of Homo sapiens and Mus musculus with 8 samples.

Results

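S100 genes encode small Ca2+-binding proteins, and 8 of them were followed here across the comparisons of a melanoma RNA-seq study: S100a1, S100a4, S100a6, S100a10, S100a11, S100a13, S100a16 and S100b. They were chosen by symbol, with earlier results of these comparisons known, from 16096 distinct symbols in the 5 deposited tables, and all 8 had a row in each of the 3 mouse tables. Their values are therefore given as a description and are no independent evidence about the family. The study profiled B16N mouse melanoma cells (genotype WT, untreated, day 0), B16N exposed to UV for 2 weeks or for 5 weeks, and a B16N clone labelled O1C44 and Orai1 overexpressing (day 0). Per the labels, the clone carries Orai1-WT-CFP, was selected with G418, sorted and grown as an individual clone, so effects of Orai1 and of that single clone cannot be told apart. Untreated and UV-exposed (week 2) WM983 and UACC257 human melanoma cells, both WT, were the remaining samples. Each group was 1 sample, and the UV samples were collected weeks after the day 0 control, so time in culture and UV cannot be told apart.

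The values are the authors' comparisons of each treated B16N sample with the same untreated B16N sample. Changes are on the log2 scale, treated against control, with the standard error (SE) implied by the deposited test statistic. No header states the direction of the deposited changes, and it was inferred from genes listed in only 1 mouse table, so every rise and fall below rests on that inference. A gene is said to have passed, risen or fallen where its p-value, adjusted by Benjamini-Hochberg over all genes of the table, was under 0.05. The tables hold no level or count for any sample, so levels, their order and sequencing depth are unknown. These are bulk samples of 1 library per group as labelled, so the differences have no replicate check and the deposited p-values speak of these libraries rather than of the treatments. How many libraries lie behind those p-values is not given. Fewer cells of a type cannot be told apart from less RNA per cell. Mouse sequences of the genes were not used here. Orai1 had 0 rows in the 3 mouse tables, so the transfected gene could not be checked. Pigment cell markers had rows in the B16N tables. Of those with values of their own, 7 of 9 were higher at 2 weeks (3.13% of all genes), 8 of 9 at 5 weeks (3.07% of all genes) and 6 of 10 in the clone (10.3% of all genes), with 1 lower in the clone. Among all genes with values of their own, adjusted anew, 9.53% passed in either direction at 2 weeks, 5.71% at 5 weeks and 26.8% in the clone. With shared values included, 1 was lower at 5 weeks, the lineage regulator gene Sox10 (-0.60, SE 0.15 in the authors' deposited table).

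An S100 protein carries a pair of EF-hands, the helix-loop-helix fold that holds a Ca2+ ion. Most S100 proteins act as dimers that open a hydrophobic face when Ca2+ binds and then attach to target proteins such as annexins, myosin or p53, and several are also secreted. S100B is a long-used tissue and serum marker of melanocytic tumours, and S100A4 has been tied to cell motility and metastasis. Orai1 forms the pore through which Ca2+ enters cells once their internal stores are empty, which is one route by which the Ca2+ that S100 proteins sense can change.

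Across the 3 comparisons, 10 of 24 member values passed, 8 higher and 2 lower, and both lower values were in the Orai1 clone. At 2 weeks of UV 4 of the 8 members rose and none fell, where 7.67% of all genes passed, 3.13% higher and 4.55% lower. At 5 weeks 2 rose and none fell, where 4.78% of all genes passed, 3.07% higher and 1.71% lower. In the clone 2 rose and 2 fell, where 22.0% of all genes passed, 10.3% higher and 11.6% lower. The members were chosen with these comparisons known, so nothing is read from the shares. The passing values belonged to 5 members, S100a1, S100a4, S100a6, S100a10 and S100b, which are also the 5 whose SE was at most 0.5 in all 3 tables. Among all genes of SE at most 0.5, adjusted anew, 14.5% passed at 2 weeks, 7.99% at 5 weeks and 35.9% in the clone. S100a11, S100a13 and S100a16 passed in none. With a 2-fold minimum added, 0 members passed at 2 weeks, 1 at 5 weeks and 2 in the clone, where 0.348%, 1.81% and 6.79% of all genes did.

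**Figure D1:**
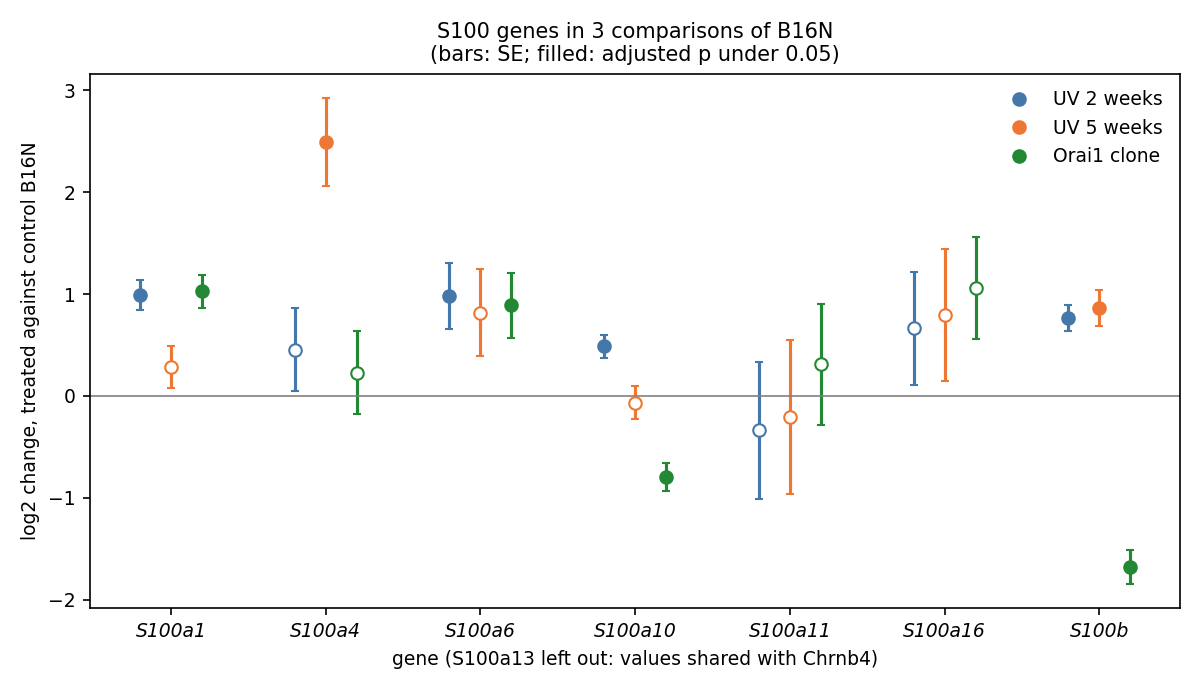
Log2 change of 7 S100 genes (horizontal axis) against control B16N after 2 weeks of UV, 5 weeks of UV and in the Orai1 clone, with bars of 1 SE and filled points for an adjusted p under 0.05. S100a4 stands at 2.50 at 5 weeks, and S100b lies above 0 at both UV times and at -1.68 in the clone.

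S100b, which encodes the melanoma marker protein, was the single member that passed in all 3 comparisons, and it went in both directions. In the deposited tables of the authors, S100b changed by 0.77 (SE 0.12) at 2 weeks and by 0.86 (SE 0.17) at 5 weeks of UV. These are rises of 1.70-fold and 1.82-fold, and the change at 5 weeks exceeded that at 2 weeks by 0.10 with a 95% interval from -0.32 to 0.52, which did not pass. In the Orai1 clone S100b changed by -1.68 (SE 0.16) in the authors' deposited table, a level 3.21-fold lower than in the control. Of the 7708 genes with values of their own and an SE of at most 0.5 in the clone, 71 had a change as low or lower. The clone lay below 2 weeks of UV by a log2 difference of -2.45 (95% interval -2.85 to -2.05) and below 5 weeks by -2.54 (-3.01 to -2.08), and both differences passed.

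S100b is also expressed by Schwann cells and other glia. In the clone, 3 of the 5 measured genes of a Schwann and glial list fell as well, and none rose, where 22.0% of all genes passed and 11.6% were lower. All 5 had values of their own, and among all such genes, adjusted anew, 26.8% passed in the clone. The adhesion gene Ncam1 stood at -2.74 (SE 0.23), the receptor gene Erbb3 at -0.999 (SE 0.17) and the cadherin gene Cdh19 at -0.60 (SE 0.13), by the authors' deposited table. The other two, the filament gene Gfap (0.87, SE 0.52) and the neurotrophin receptor gene Ngfr (0.99, SE 0.63), had positive values that did not pass in the authors' deposited table. Erbb3 was lower at both UV times too, at -0.69 (SE 0.16) and -1.02 (SE 0.24) in the authors' deposited tables, while S100b was higher there. Among the pigment cell markers of the clone, Dct, an enzyme of the eumelanin pathway, fell (-0.61, SE 0.092) and the melanosome gene Pmel rose (0.92, SE 0.098) in the authors' deposited table. The part of these glial and pigment cell genes in the S100b value was not tested.

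S100a4, whose product binds non-muscle myosin and is known for its part in cell motility, had the largest change of any member, and it was at 5 weeks of UV. In the authors' deposited tables it changed by 0.45 (SE 0.40) at 2 weeks, 2.50 (SE 0.43) at 5 weeks and 0.23 (SE 0.41) in the clone, and only the value at 5 weeks passed. The rise was 5.64-fold with a 95% interval of the log2 change from 1.65 to 3.34. It ranked 9 from the top among 7218 genes with values of their own and an SE of at most 0.5. S100a4 at 5 weeks exceeded its change at 2 weeks by 2.04 (95% interval 0.88 to 3.20), a difference that passed a normal test with Benjamini-Hochberg adjustment over all genes in both tables. The difference of the clone from 5 weeks was -2.27 (-3.43 to -1.11), which passed too. Between clone and 2 weeks the difference in S100a4 was -0.23 (-1.35 to 0.90), which did not pass. Its interval still holds a value more than 2-fold lower in the clone.

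S100a4 is also abundant in fibroblasts and macrophages. Of 14 macrophage markers, 7 had a row at 5 weeks and 1 of these, the lysozyme gene Lyz2, had values of its own, which the authors' deposited table gives as 3.47 (SE 0.70). For the clone, where S100a4 did not pass, the authors' deposited table gives 2.78 (SE 0.64) for Lyz2. The other macrophage markers with a row at 5 weeks share their values with other symbols, and none passed, where 4.78% of all genes did. In the authors' deposited table they include Cd14 (1.75), Fcer1g (1.73), Cd68 (-0.15) and C1qb (-0.95). Ptprc, Csf1r and Adgre1, which define leukocytes and macrophages, had no row at 5 weeks. Nothing is read from which markers had a row. Of 10 fibroblast markers 3 had a row at 5 weeks and none passed, where 4.78% of all genes did. With so few rows, nothing is read from that count. The authors' deposited table gives -0.15 (SE 0.65) for the matrix gene Postn and 2.32 (SE 2.20) for the growth factor receptor gene Pdgfrb. It gives 1.72 (SE 3.71) for the collagen gene Col1a1, a value of the authors' deposited table that other symbols share. The part of other cell types in the S100a4 value was not tested.

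The 5 genes nearest to S100a4 in their 3 changes, by Euclidean distance among 7168 genes of SE at most 0.5 in all 3 tables, were Mgst1, Kdelr3, Hmox1, Mt2 and Gpr37, at distances from 0.50 to 0.95 on the log2 scale. Mgst1, a microsomal glutathione transferase gene, stood at 0.19, 2.08 and 0.20 at 2 weeks, 5 weeks and in the clone in the authors' deposited tables. Kdelr3, a receptor that returns proteins to the endoplasmic reticulum, stood at 0.44, 2.56 and 0.73 in the authors' deposited tables. The haem oxygenase gene Hmox1 (0.054, 2.56 and 0.59) and the metallothionein gene Mt2 (-0.035, 2.40 and 0.54) also passed in the clone in the authors' deposited tables. Gpr37, a receptor gene, was farther away at 0.56, 1.60 and 0.52 in the authors' deposited tables. These 5 genes were picked by the same values, so their likeness to S100a4 is built in and is no separate evidence. Between 5 and 2 weeks the differences of Mgst1, Hmox1 and Mt2 passed, while those of Kdelr3 and Gpr37 did not. The 3 comparisons share their control sample.

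**Figure D2:**
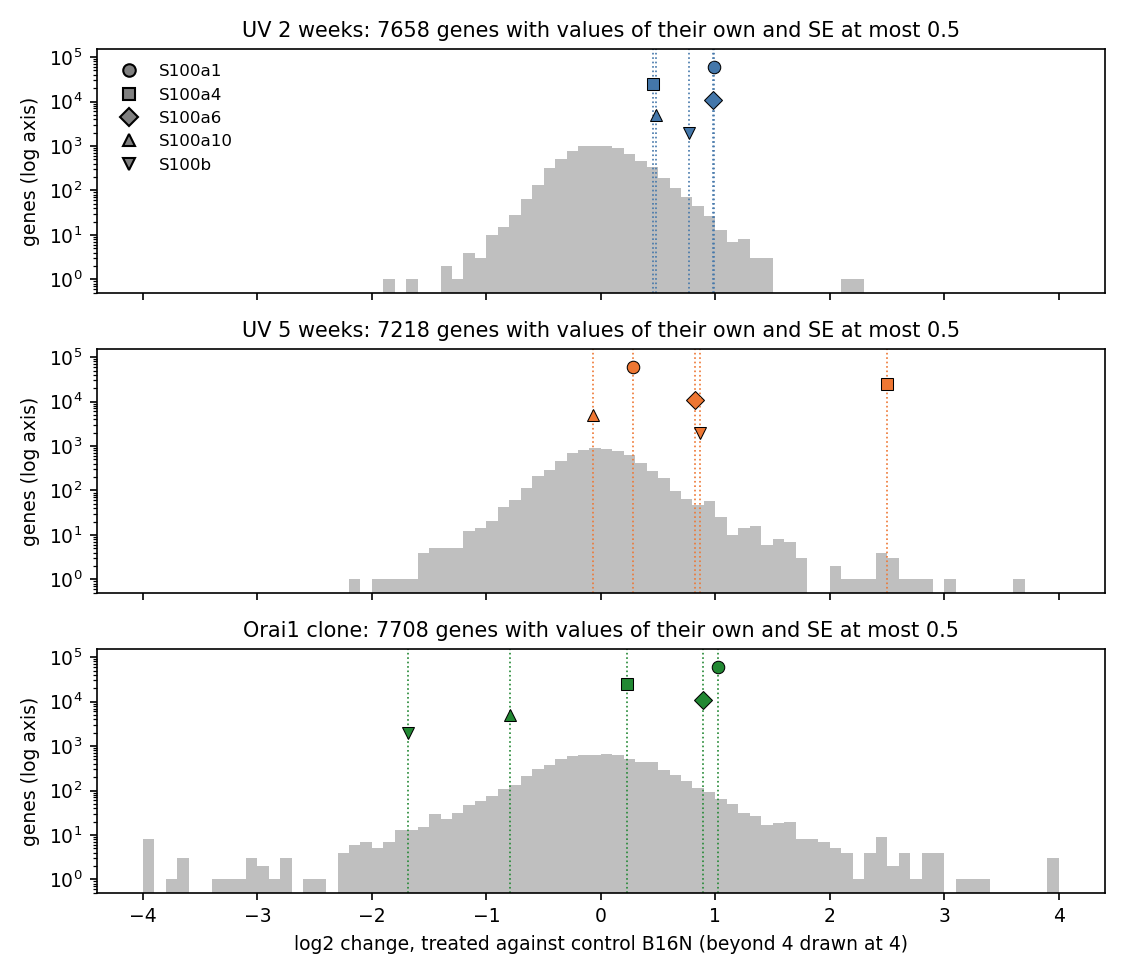
Number of genes (vertical log axis) by log2 change against control B16N (horizontal axis) in each comparison, for genes with values of their own and an SE of at most 0.5, with markers for 5 S100 genes whose heights carry no value. S100a4 lies in the upper tail at 5 weeks (2.50) and S100b in the lower tail in the clone (-1.68).

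S100a1 and S100a6 had positive changes in all 3 comparisons, and each passed at 2 weeks and in the clone. S100a1, best known as a Ca2+ sensor of muscle cells that acts on Ca2+ release and uptake, changed by 0.99 (SE 0.15) at 2 weeks of UV, 0.28 (SE 0.21) at 5 weeks and 1.03 (SE 0.16) in the clone in the authors' deposited tables. The values at 2 weeks and in the clone passed, at 1.99-fold and 2.04-fold, and S100a1 ranked 40 from the top of 7658 genes of SE at most 0.5 at 2 weeks. The clone and 2 weeks differed by 0.036 in S100a1 (95% interval -0.39 to 0.46), which did not pass. The difference in S100a1 was -0.71 (-1.21 to -0.21) for 5 weeks minus 2 weeks and 0.74 (0.23 to 1.26) for the clone minus 5 weeks, and neither passed, with adjusted p of 0.108 and 0.0789. This normal test adds both SE in squares, so the error of the control library enters it more than once. With a share of 0.5 of each squared SE taken to come from the control, both S100a1 differences passed, at adjusted p of 0.00166 and 0.00109. That share is an assumption that makes the SE of every gene's difference smaller. How many of all genes passed under it is not given, so nothing is read from these passes.

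S100a6, also called calcyclin, changed by 0.98 (SE 0.33) at 2 weeks, 0.82 (SE 0.43) at 5 weeks and 0.89 (SE 0.32) in the clone in the authors' deposited tables. The first and the last passed, and neither did at an adjusted p under 0.01. The fold changes were 1.98, 1.76 and 1.85, and the largest difference between treated samples was -0.17 (5 weeks minus 2 weeks, 95% interval -1.22 to 0.89). None of the 3 differences passed. All 3 changes rest on the same control library, and the tables give no S100a6 level for it.

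S100a10 differs from its relatives in that its protein has lost the ability to bind Ca2+ and sits in a complex with annexin A2 at the plasma membrane. It rose at 2 weeks and fell in the clone. In the deposited tables of the authors, S100a10 changed by 0.49 (SE 0.11) at 2 weeks, -0.067 (SE 0.16) at 5 weeks and -0.80 (SE 0.14) in the clone. The rise was 1.40-fold and the fall 1.74-fold. The clone was below 2 weeks by a difference of -1.28 (95% interval -1.63 to -0.94) and below 5 weeks by -0.73 (-1.15 to -0.31), and both passed. The difference of 5 weeks from 2 weeks was -0.55 (-0.94 to -0.16), which did not pass the normal test, with an adjusted p of 0.11 for S100a10. With a share of 0.5 of each squared SE assigned to the control, that adjusted p became 0.00173. Nothing is read from this either, because the assumed share makes the SE of every gene's difference smaller.

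**Figure D3:**
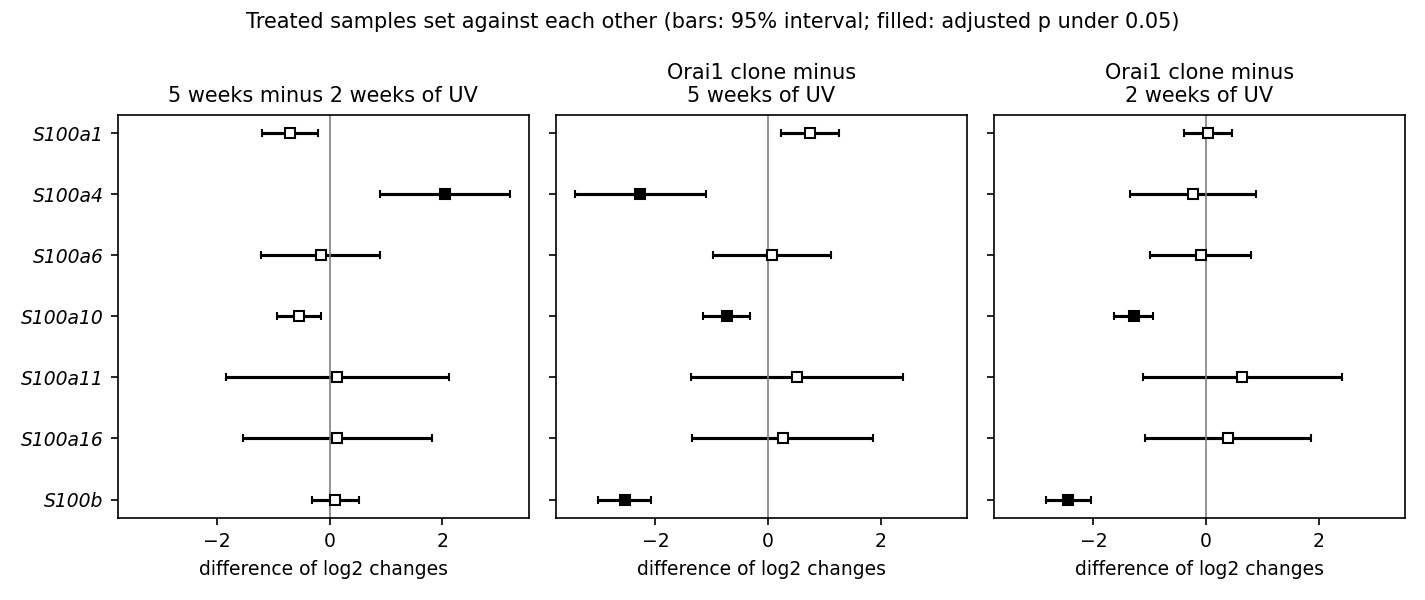
Difference of log2 changes between treated B16N samples (horizontal axes) for 7 S100 genes, with 95% intervals and filled squares for an adjusted p under 0.05. S100a4 passes at 5 against 2 weeks (2.04), and S100a10 and S100b lie below 0 in both panels with the clone.

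Over the 3 pairs of treated samples, 1 of 8 members differed between 5 and 2 weeks of UV, where 3.33% of all genes did and 2.05% were higher at 5 weeks. Between the clone and 5 weeks 3 members differed, S100a4, S100a10 and S100b, against 5.35% of all genes, 4.08% lower in the clone. Between the clone and 2 weeks 2 members differed, S100a10 and S100b, against 11.7% of all genes, 6.86% lower in the clone. All of the clone's passing differences were in the direction of a lower value in the clone.

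The 3 members that passed nowhere had wide errors. S100a16, a broadly expressed member, stood at 0.66 (SE 0.56) at 2 weeks, 0.80 (SE 0.65) at 5 weeks and 1.06 (SE 0.50) in the clone in the authors' deposited tables. Its 95% interval in the clone ran from 0.072 to 2.05. S100a11, which pairs with annexin A1, stood at -0.34 (SE 0.67), -0.21 (SE 0.76) and 0.31 (SE 0.60) in the authors' deposited tables. Its intervals, such as -1.66 to 0.98 at 2 weeks, hold changes of 2-fold or close to it in either direction. S100a13, which takes part in the export of proteins that lack a signal peptide, had an SE from 1.43 to 1.94 in the authors' deposited tables, and no fold is given. Its 3 rows are identical to those of Chrnb4, a nicotinic receptor subunit gene, so its values cannot be assigned to S100a13.

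Outside the 8 members, 5 further symbols starting with S100 had a row in at least 1 mouse table, and none passed. Of all genes, 7.67% passed at 2 weeks, 4.78% at 5 weeks and 22.0% in the clone. Only S100pbp had values of its own, so nothing is read from the 5 symbols. S100a5 had a row in all 3 tables and is left out because it has the same values as the ribosomal protein gene Rpl30. S100a3 (2 tables), S100a8 (the clone's table) and the pseudogene S100a11-ps (5 weeks) had an SE above 4 and values identical to those of many other symbols. S100pbp, which encodes a binding partner of S100P and not an S100 protein, stood at 0.20 (SE 0.32), -0.32 (SE 0.41) and -0.29 (SE 0.33) in the authors' deposited tables. Neither human table, each with the same 420 genes, had a row for an S100 gene, so the human lines give no value for the family.

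Of 9 annexins and other S100 partner genes with values of their own, 6 fell and 1 rose in the clone, where 11.6% of all genes were lower and 10.3% higher. Their median change there was -0.53, against 0.033 for 10659 genes with values of their own. At 5 weeks 3 fell and 1 rose, where 1.71% of all genes were lower and 3.07% higher, with a median of -0.42 against 0.0069 for 10482 genes. At 2 weeks 1 fell and none rose, where 4.55% of all genes were lower and 3.13% higher, with a median of 0.064 against 0.020 for 10415 genes. Among all genes with values of their own, adjusted anew, 9.53% passed at 2 weeks, 5.71% at 5 weeks and 26.8% in the clone. The list, which holds Ahnak, was drawn up with earlier results of these data known. Nothing is therefore read from these counts and medians. Anxa2, the partner of S100a10, stood at 0.14 (SE 0.11) at 2 weeks, -0.60 (SE 0.17) at 5 weeks and -0.88 (SE 0.13) in the clone in the authors' deposited tables. It therefore fell at 5 weeks, where S100a10 stood at -0.067, and in the clone, where both fell. Anxa2 was lower at 5 weeks than at 2 weeks (difference -0.74, 95% interval -1.14 to -0.35) and in the clone than at 2 weeks (-1.02, -1.36 to -0.69), and both differences passed.

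Anxa4 (-0.97, SE 0.14) and Anxa7 (-0.53, SE 0.11), which encode further Ca2+-dependent membrane-binding annexins, fell in the clone in the authors' deposited table. Ahnak, a large scaffold protein gene that was picked after its values were seen because it binds the S100A10 and annexin A2 complex, fell by 1.93 on the log2 scale (SE 0.50) in the clone in the authors' deposited table. Tpm1, whose tropomyosin binds actin filaments, was lower in all 3 comparisons, at -0.30 (SE 0.070), -0.63 (SE 0.14) and -0.51 (SE 0.086) in the authors' deposited tables. Ezr, which links actin to the membrane, rose at 5 weeks (0.96, SE 0.19) and in the clone (0.44, SE 0.16) in the authors' deposited tables, and Anxa11 fell at 5 weeks (-0.71, SE 0.19). Anxa1, the partner of S100a11, has the same values as Tmem125 and Anxa6 the same as Mcmbp, so neither was counted. With such symbols included the partners had 8 lower and 2 higher of 17 in the clone, where 11.6% of all genes were lower and 10.3% higher. The receptors for secreted S100 proteins gave 1 gene with values of its own, the innate receptor gene Tlr4, at 0.084 (SE 0.61), -0.46 (SE 0.81) and 0.051 (SE 0.63) in the authors' deposited tables. With symbols that share values included, 1 of 6 was higher and 1 lower at each UV time. In the clone 1 of the 6 was higher and 2 lower. Of all genes, 7.67% passed at 2 weeks, 4.78% at 5 weeks and 22.0% in the clone.

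**Figure D4:**
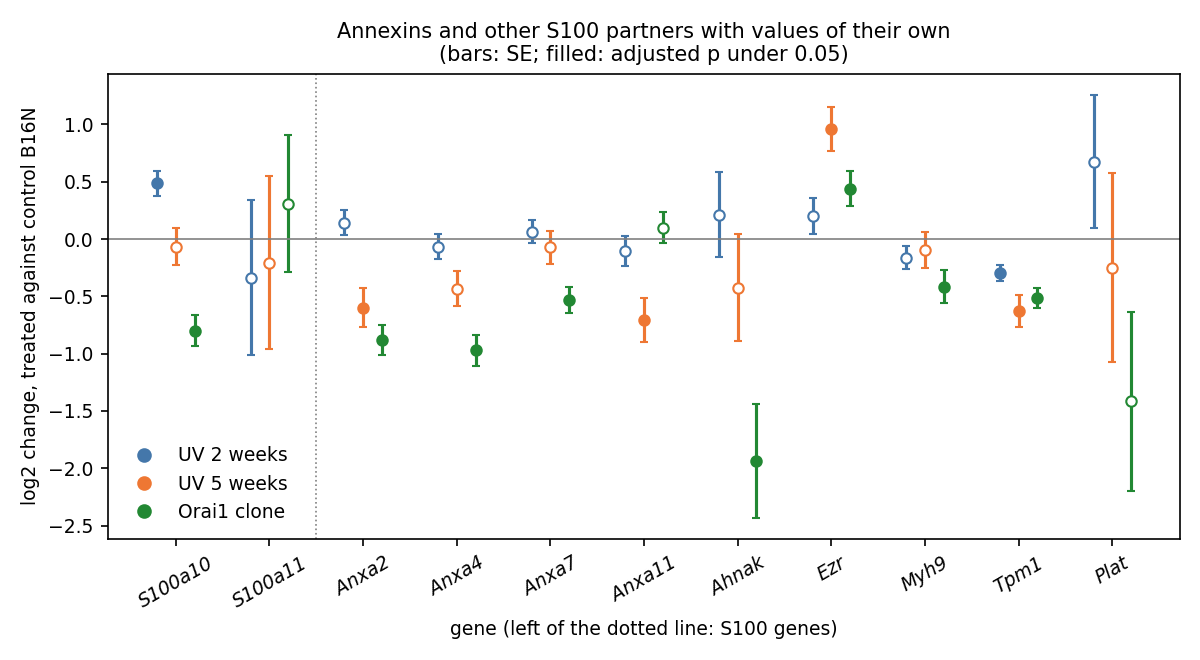
Log2 change of S100a10, S100a11 and 9 partner genes (horizontal axis) against control B16N in 3 comparisons, with bars of 1 SE and filled points for an adjusted p under 0.05. In the clone S100a10 (-0.80), Anxa2 (-0.88), Anxa4 (-0.97) and Ahnak (-1.93) lie below 0.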

How the data were processed

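RNA-seq of 8 samples, 1 per group, was available as 5 tables of comparisons. Per the file headers, each row of the authors' tables pairs a gene symbol with its log2 fold change, the score of a test and its p-value. The submitters' processing notes name GRCm38 as genome build. The aligner, the counting, the test and the build of the human data are not given in the sources used here. Signs of the mouse tables were turned, because all 1357 genes listed in only 1 of the mouse tables had a negative deposited log2 value, as genes read only in the treated sample would with the control in the numerator. Dividing a log2 value by its score gave the SE. The deposited p-value equals the two-sided normal p of the score (largest gap 5e-08).

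Benjamini-Hochberg adjustment ran over 14648, 14821 and 15041 genes, leaving out 1 row without a symbol per table and 3 without a p-value in the clone's. Pairs of treated samples were compared by a two-sided normal test of the difference, SE added in squares, over 14083, 14291 and 14105 genes. Symbols with identical values were left out of gene list counts unless stated. Member counts kept S100a13, which shares its values with Chrnb4 and passed nowhere. No fold is given above an SE of 1. The members, the 12 gene lists and the tests were chosen with earlier results of these data known. Named genes were all members, other S100 symbols, up to 4 genes per list and comparison with the smallest adjusted p, passing markers, and the 5 nearest to S100a4; some genes are not reported here, and others beside these were named after their values were seen. Alternatives were fold minimums, a stricter adjusted p (0.01), a limit of 0.5 on the SE, removal of shared values, centring, and a smaller SE of differences. The procedure was run on simulated data whose noise followed the deposited SE and was independent in each comparison. The common control and the spread between replicates were not simulated, so the run does not check the tests of differences for them. Depth is unknown. Gene order came from a human RefSeq table (GRCh38.p14). Python 3.11.15, numpy 2.4.6, pandas 2.3.3 and scipy 1.17.1 were used.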

Additional observations from a re-analysis of the deposited data

Results flagged for a closer look

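S100a4 changed differently at the 2 UV times: its log2 change at 5 weeks exceeded that at 2 weeks by 2.04 (SE 0.59), which passed a normal test of the difference adjusted over 14083 genes. Each time was 1 sample, and both changes used the same control. The difference did not pass at an adjusted p under 0.01.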

How the results depend on the processing

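Member counts moved by over 1.5 times in 5 cases. With a 2-fold minimum 0 members passed at 2 weeks (4 without it), 1 at 5 weeks (2 without it) and 2 in the clone (4 without it). Between 5 and 2 weeks 0 members differed at an adjusted p under 0.01, and 3 did with a share of 0.5 of each squared SE assigned to the control (1 in the reported test). That share is an assumption that makes the SE of every gene's difference smaller. How many of all genes passed under it is not given here, so nothing is read from the 3 members. Over all alternatives, 227 of 243 member values kept their side of the threshold, 13 lost and 3 gained a call, and 0 reversed. Only centring altered the log2 values, for 48 of the 243, so no reversal could arise under the other alternatives. Reversal was checked only where the reported value passed. Leaving out a replicate was not possible with 1 sample per group, and no paired analysis was possible because no replicate numbers are given. Unknown depth, a common control and wide SE for S100a11, S100a13 and S100a16 limit these values.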

Other observations

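Ca2+-binding genes with EF-hands outside the S100 family moved both ways in the clone. Of 20 with values of their own 7 rose and 5 fell there, against 22.0% of all genes passing. At 2 weeks 2 of 19 were higher and none lower (7.67% of all genes passing). At 5 weeks 1 of 20 was lower and none higher (4.78%). Among all genes with values of their own, adjusted anew, 26.8% passed in the clone, 9.53% at 2 weeks and 5.71% at 5 weeks. The calpain gene Capn1, a Ca2+-activated protease, rose by 2.07 (SE 0.29) in the clone in the authors' deposited table, while the reticulocalbin gene Rcn1 (-0.65, SE 0.10), the neuronal Ca2+ sensor gene Ncald (-0.50, SE 0.10) and Mcfd2 (-0.42, SE 0.10), a cargo receptor subunit, fell there. Ncald, like S100a10 and S100b, rose at 2 weeks of UV, by 0.31 (SE 0.087) in the authors' deposited table. The calpain small subunit gene Capns1 rose at 2 weeks (0.38, SE 0.087) and in the clone (0.29, SE 0.098), and the actin crosslinker gene Actn1 fell at 5 weeks by 0.67 (SE 0.20), all in the authors' deposited tables.

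In the human RefSeq assembly, 7 of the 8 human counterparts lie on 1 chromosome. There S100A13 overlaps both S100A1 and CHTOP, and S100A4 overlaps S100A5. Whether the mouse genes overlap was not analysed here, and strand use in the counting is not given. Of 10 genes listed as flanking the cluster with values of their own, none passed at 2 weeks, where 7.67% of all genes did. None of 9 passed at 5 weeks (4.78% of all genes). Among all genes with values of their own, adjusted anew, 9.53% passed at 2 weeks, 5.71% at 5 weeks and 26.8% in the clone. With so few flanking genes, nothing is read from these counts. In the clone 2 of the 10 rose, where 22.0% of all genes passed and 10.3% were higher. These were Jtb (0.69, SE 0.14) and the GTPase gene Rab13 (0.55, SE 0.20) in the authors' deposited table. Chtop, the neighbour of S100A1 in the human order, stood at -0.012 (SE 0.092), 0.074 (SE 0.12) and 0.23 (SE 0.099) in the authors' deposited tables, and was named after its values were seen. Beside S100b, Prmt2 stood at 0.048 (SE 0.16) and Dip2a at -0.079 (SE 0.17) in the clone in the authors' deposited table, both also named after their values were seen. Of the 5 measured genes listed near S100b with values of their own, 1 passed in the clone, where 22.0% of all genes did, the collagen gene Col6a1 (-3.34, SE 0.98) in the authors' deposited table.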
